A study of Homo sapiens with 6 samples.

Results

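The snoRNA host lncRNAs examined here are 10 spliced non-coding genes, *GAS5*, *SNHG1*, *SNHG5*, *SNHG6*, *SNHG7*, *SNHG8*, *SNHG12*, *SNHG15*, *ZFAS1* and *EPB41L4A-AS1*. They were taken by name and matched by Ensembl gene identifier, and all 10 were found among the 57773 genes of the deposited table. H460 is an established line of human lung cancer cells of the non-small-cell type. They received 50 nM siRNA for 48 hours. In 3 libraries this was a non-targeting control (siNT), and in the other 3 it was si*HKlincR1*_2, a single siRNA against the lincRNA *HKlincR1* (AC093323.3), here called si*HKlincR1*. The 3 libraries of a group were described as biological replicates, all libraries came from 1 cell line, and a second siRNA against the same transcript was not analysed here, so an effect of lowering *HKlincR1* and another effect of this siRNA cannot be told apart.

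Small nucleolar RNAs (snoRNAs) guide chemical modification of ribosomal RNA. Box C/D snoRNAs direct 2′-O-methylation and box H/ACA snoRNAs direct pseudouridylation. In human cells most are cut out of the introns of a host transcript after splicing, and the joined exons of a host lncRNA are then exported. These exons hold only short reading frames. They are engaged by ribosomes and degraded by nonsense-mediated decay, so that the spliced RNA of several hosts is known to accumulate when translation stops. Many hosts also start with a C followed by a run of pyrimidines, the 5′ terminal oligopyrimidine (5′TOP) motif that marks mRNAs of ribosomal proteins and ties their translation to mTOR. PolyA sequencing reports the spliced host and not the mature snoRNA, which carries no polyA tail.

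The knockdown separated the groups without overlap. *HKlincR1* (ENSG00000170846) had 3.62, 3.47 and 3.83 RPKM, that is, its read count divided by gene length and sequencing depth, in the siNT libraries and 0.563, 0.628 and 0.390 RPKM in the si*HKlincR1* libraries, in replicate order. The residual level was lowest in si*HKlincR1* replicate 3. The fold change was -2.59 on the log2(RPKM + 0.1) scale that is used for every fold change here (limma adjusted p = 0.00245, or 0.0138 in a fit that blocked on the replicate number). Library totals worked back from the values ran from 24980280 to 30521000 reads, and 89.9% to 91.1% of them fell on listed genes. Of 5 epithelial markers, *KRT8*, *KRT18* and *KRT19* were tested, *EPCAM* and *CDH1* were near 0, and the summed level was 148 to 170 RPKM across the libraries. Lung lineage markers (*NKX2-1*, *SFTPB*, *SFTPC* and *NAPSA*) summed to at most 0.0365 RPKM in any library.

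The starts of the hosts are shown first, because the 5′TOP motif lies there. Each window holds 20 bases before and 40 bases from the annotated start of the canonical transcript, read from GRCh37 on the strand of the gene. Capitals mark the longest run of C and T that begins with C in the stretch from 10 bases before to 20 bases after the start, counting only bases inside that stretch.
*ZFAS1*, chr20:47895159-47895218, plus strand: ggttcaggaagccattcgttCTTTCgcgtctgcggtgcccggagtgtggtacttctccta
*GAS5*, chr1:173837088-173837147, minus strand: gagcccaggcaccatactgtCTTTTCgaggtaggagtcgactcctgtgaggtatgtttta
*SNHG5*, chr6:86388427-86388486, minus strand: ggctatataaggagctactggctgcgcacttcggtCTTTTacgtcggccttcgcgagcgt
*SNHG8*, chr4:119199843-119199902, plus strand: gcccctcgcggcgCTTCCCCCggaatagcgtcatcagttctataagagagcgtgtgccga
*SNHG1*, chr11:62623355-62623414, minus strand: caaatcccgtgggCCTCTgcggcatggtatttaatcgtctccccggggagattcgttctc
*EPB41L4A-AS1*, chr5:111496203-111496262, plus strand: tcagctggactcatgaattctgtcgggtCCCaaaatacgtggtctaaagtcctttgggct
In *ZFAS1* and *GAS5* the run began on the first base of the annotated transcript. Anywhere in that stretch, a run of at least 5 bases was found in 7 of the 10 hosts and in 76 of 79 ribosomal protein genes (96.2%). It was found in 5102 of 14716 tested genes with a canonical transcript (34.7%). In *SNHG8*, *SNHG1* and *SNHG7* the run began before the annotated start, at -7, -7 and -10. In *SNHG5* and *SNHG12* it began inside the transcript, at bases 16 and 13. These counts therefore do not show how many hosts or genes carry a 5′TOP motif. The 3 hosts with no run of 5 bases were *SNHG6*, *SNHG15* and *EPB41L4A-AS1*. Annotated starts can lie some bases from the start used in H460 cells, which was not measured here.

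Intron-encoded snoRNAs are shown for *ZFAS1*, where 3 related box C/D snoRNAs lie inside the gene. The capitals mark TGATGA as box C and CTGA as box D.
*SNORD12C*, chr20:47895477-47895565, plus strand: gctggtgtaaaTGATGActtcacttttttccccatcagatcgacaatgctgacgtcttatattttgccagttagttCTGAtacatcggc
*SNORD12B*, chr20:47896856-47896946, plus strand: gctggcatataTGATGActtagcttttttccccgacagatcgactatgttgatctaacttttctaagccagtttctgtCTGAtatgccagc
*SNORD12*, chr20:47897220-47897309, plus strand: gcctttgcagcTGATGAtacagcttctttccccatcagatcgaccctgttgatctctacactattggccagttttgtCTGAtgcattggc
*EPB41L4A-AS1* carries *SNORA13*, a box H/ACA snoRNA, shown with the ACA of its 3′ tail in capitals.
*SNORA13*, chr5:111497182-111497314, plus strand: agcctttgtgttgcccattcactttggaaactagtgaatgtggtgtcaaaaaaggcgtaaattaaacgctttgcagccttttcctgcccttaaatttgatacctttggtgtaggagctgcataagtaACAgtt
The GENCODE annotation used here placed 6 snoRNA genes inside the hosts on the same strand, which is not a complete list. Their rows held 239 reads over the 6 libraries, against 117649 reads on the 10 hosts. *SNORD99*, in *SNHG12*, had 21, 13 and 14 reads with siNT and 17, 16 and 18 reads with si*HKlincR1*, and *SNORA13* had 9, 7 and 4 against 12, 7 and 7. The other 4 rows had at most 8 reads in any library, with 2 to 8 for *SNORD78* (host *GAS5*), *SNORD12* and *SNORD12B* and 0 to 2 for *SNORD12C*. Of the 6, *SNORD78*, *SNORD12B*, *SNORD12* and *SNORA13* also overlap an exon of their host, so reads from the spliced host may be counted there. No test was run on these rows, which are close to or under the floor of 3 reads in many libraries.

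Control levels spanned a wide range, in an order that depends on the gene model lengths behind RPKM. These lengths were 1097 bases for *ZFAS1*, 923 for *SNHG8* and 3631 for *GAS5*. The canonical spliced transcripts measure 4526, 6166 and 768 bases. By reads *GAS5* was above *ZFAS1*, with 5014, 4815 and 3840 against 2208, 2374 and 1939 in the siNT libraries. On the RPKM scale *ZFAS1* led with 71.4 ± 0.980 (SD, n = 3), and its mean over all libraries was above that of 96.6% of tested genes. It was followed by *SNHG8* (55.4 ± 5.73), *GAS5* (45.2 ± 4.0), *SNHG6* (39.3 ± 1.37), *SNHG5* (35.6 ± 1.73), *SNHG1* (19.5 ± 1.36), *SNHG7* (14.6 ± 0.708), *EPB41L4A-AS1* (11.03 ± 0.527), *SNHG12* (6.98 ± 0.936) and *SNHG15* (6.87 ± 0.942). The last pair lay near the middle of the tested genes, above 57.3% and 60.0% of them by the mean over all libraries. In siNT, *SNHG12* and *SNHG15* were the only neighbours in this order whose libraries overlapped. With si*HKlincR1* the order of the means was the same for the first 8 hosts, but ranges overlapped between *ZFAS1* and *SNHG8*, *SNHG8* and *GAS5*, *GAS5* and *SNHG6*, *SNHG7* and *EPB41L4A-AS1*, and *SNHG12* and *SNHG15*.

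**Figure D1:**
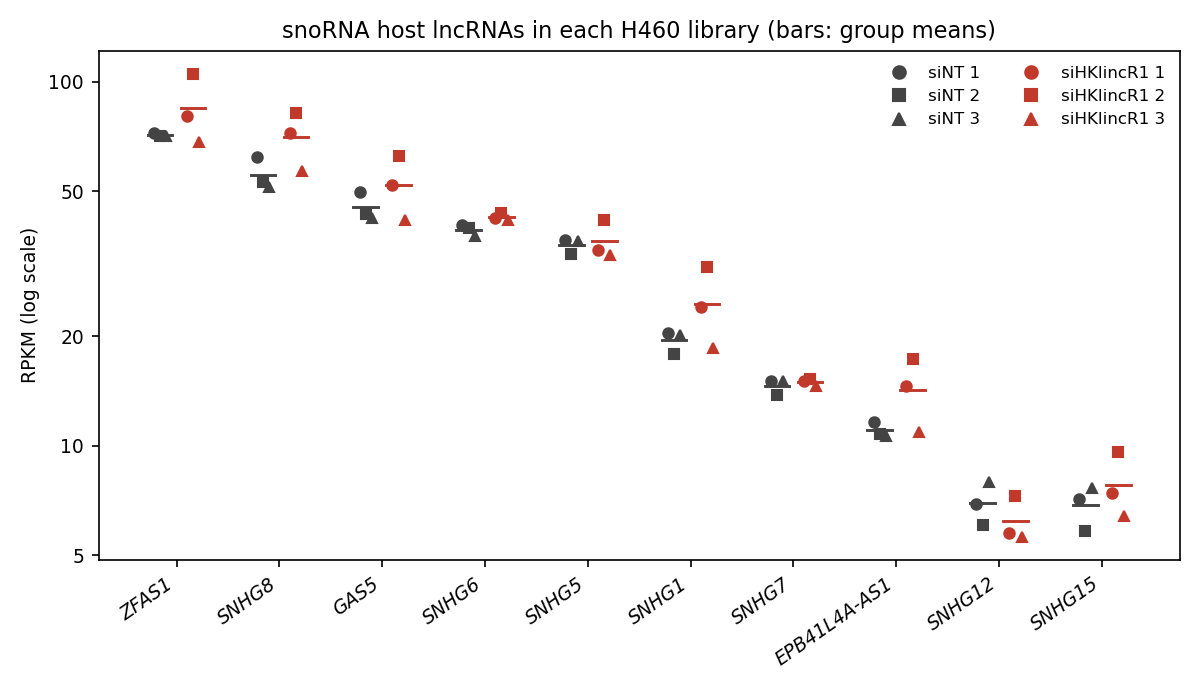
Level of each host in RPKM (log axis) in the 3 siNT libraries (grey) and the 3 si*HKlincR1* libraries (red), with marker shape giving the replicate and bars the group means. si*HKlincR1* replicate 2 (red square) is the highest library for 9 of the 10 hosts, and si*HKlincR1* replicate 3 (red triangle) lies among or near the siNT libraries for most of them.

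After the knockdown none of the 10 hosts passed the test. Calls needed a limma adjusted p below 0.05 together with more than 1.5-fold, and over all 15451 tested genes 55 were lower (0.356%) and 1 was higher (0.00647%). The fitted change was above 0 for 9 hosts and below 0 for *SNHG12*, with a median of 0.18 against 0.0011 over all tested genes. In bulk RNA, a change in some of the cells and a smaller change in all of them cannot be told apart. When replicate numbers entered as a block, again no host was called, where 0.511% of tested genes were called higher and 0.809% lower. At an unadjusted p under 0.05 the limma fit held 0 hosts, the fit with the block held *SNHG8* and *EPB41L4A-AS1* (12.3% of all tested genes were higher by that measure), and a voom fit on reads worked back from the values held 1.

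Among the hosts 1 library stood out. si*HKlincR1* replicate 2 was the highest of the 6 libraries for 9 hosts, and 9 hosts in that library lay above every siNT library. In si*HKlincR1* replicate 1, 7 hosts lay above every siNT library, and in replicate 3 only 1 host did. These counts were not made over all tested genes, so whether they are particular to the hosts was not tested. Summed as reads, the hosts made up 0.0680%, 0.0614% and 0.0638% of the siNT libraries and 0.0724%, 0.0865% and 0.0618% of the si*HKlincR1* libraries. The means were 0.0644% ± 0.00335 and 0.0736% ± 0.0124 (SD, n = 3), and the groups overlapped (exact two-sided permutation test, p = 0.30, where 0.10 is the smallest p possible).

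Of the hosts of box C/D snoRNAs, *GAS5* (ENSG00000234741, chr1:173827697-173838020, GRCh37, minus strand) is a growth-arrest transcript whose spliced RNA can bind the glucocorticoid receptor. It had 49.8, 43.5 and 42.3 RPKM with siNT and 52.0, 62.6 and 41.8 RPKM with si*HKlincR1*. Replicate 2 was high and replicate 3 was below every control, so the groups overlapped. The log2 fold change was 0.19 (SE 0.147, limma adjusted p = 0.532).

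*SNHG1* (ENSG00000255717, chr11:62619450-62623425, minus strand) hosts a row of box C/D snoRNAs beside the amino acid transporter gene *SLC3A2*. Its levels were 20.4, 17.9 and 20.1 RPKM with siNT and 24.1, 30.9 and 18.5 RPKM with si*HKlincR1*. The first 2 knockdown libraries exceeded all controls and the third did not. Its log2 fold change of 0.30 had a 95% interval of -0.11 to 0.71 (limma adjusted p = 0.410), which reaches beyond a 1.5-fold change.

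*ZFAS1* (ENSG00000177410, chr20:47894715-47916137, plus strand), named for its position antisense to the start of *ZNFX1*, had the tightest controls of the 10 relative to their mean. They stood at 72.5, 70.9 and 70.8 RPKM, against 80.4, 105 and 68.5 RPKM with si*HKlincR1*. The knockdown libraries thus ranged from below to well above the controls, with SDs of 0.980 and 18.7 RPKM. The log2 fold change was 0.22 (95% interval -0.12 to 0.56, limma adjusted p = 0.462).

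*SNHG5* (ENSG00000203875, chr6:86360209-86388650, minus strand) had 36.7, 33.6 and 36.4 RPKM with siNT and 34.4, 41.6 and 33.4 RPKM with si*HKlincR1*. Only replicate 2 of the knockdown was above the controls. The log2 fold change was 0.03 (limma adjusted p = 0.891) and was -0.01 without siNT replicate 2 and -0.07 without si*HKlincR1* replicate 2.

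*SNHG6* (ENSG00000245910, chr8:67832796-67838633, minus strand) varied little between libraries. Values of 40.4, 39.6 and 37.8 RPKM with siNT stood against 42.3, 43.5 and 41.7 RPKM with si*HKlincR1*. It was the only host with every knockdown library above every control, a separation that 10.1% of all tested genes also showed in this direction. The size was small, a log2 fold change of 0.11 (SE 0.059, 95% interval -0.03 to 0.25, limma adjusted p = 0.371), and its interval did not reach 1.5-fold.

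*SNHG12* (ENSG00000197989, chr1:28905050-28909644, minus strand), which holds snoRNAs of both classes, was the 1 host with a fitted change below 0. It had 6.91, 6.07 and 7.94 RPKM with siNT and 5.74, 7.28 and 5.63 RPKM with si*HKlincR1*. The highest library was siNT replicate 3 and the groups overlapped. The log2 fold change was -0.17 (95% interval -0.49 to 0.16, limma adjusted p = 0.558).

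Among hosts of box H/ACA snoRNAs, *SNHG8* (ENSG00000269893, chr4:119199858-119206471, plus strand) had the smallest unadjusted p. Levels were 62.0, 52.9 and 51.4 RPKM with siNT and 72.2, 82.3 and 56.9 RPKM with si*HKlincR1*. Each knockdown library was above its same-numbered control, by 1.17-fold, 1.56-fold and 1.11-fold. The log2 fold change was 0.33 (SE 0.143, limma adjusted p = 0.308, or 0.131 with the block).

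*EPB41L4A-AS1* (ENSG00000224032, chr5:111496223-111500515, plus strand), the host of *SNORA13*, had the largest fitted change of the 10. Its 11.6, 10.8 and 10.7 RPKM with siNT compared with 14.6, 17.3 and 10.9 RPKM with si*HKlincR1*. All 3 same-numbered ratios were above 1 (1.252, 1.60 and 1.02), although replicate 3 stayed below siNT replicate 1. The log2 fold change was 0.34 (SE 0.159, 95% interval -0.03 to 0.72, limma adjusted p = 0.335, or 0.173 with the block).

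*SNHG7* (ENSG00000233016, chr9:139615818-139622636, minus strand) hardly varied, with 15.03, 13.8 and 15.05 RPKM in siNT and 15.1, 15.2 and 14.6 RPKM in si*HKlincR1*. Its log2 fold change was 0.03 (limma adjusted p = 0.814), and -0.01 without siNT replicate 2. *SNHG15* (ENSG00000232956, chr7:45022618-45026560, minus strand) had 7.12, 5.82 and 7.65 RPKM in siNT and 7.40, 9.58 and 6.43 RPKM in si*HKlincR1*. The groups of both genes overlapped, and for *SNHG15* the log2 fold change was 0.17 (95% interval -0.21 to 0.56, limma adjusted p = 0.613).

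**Figure D2:**
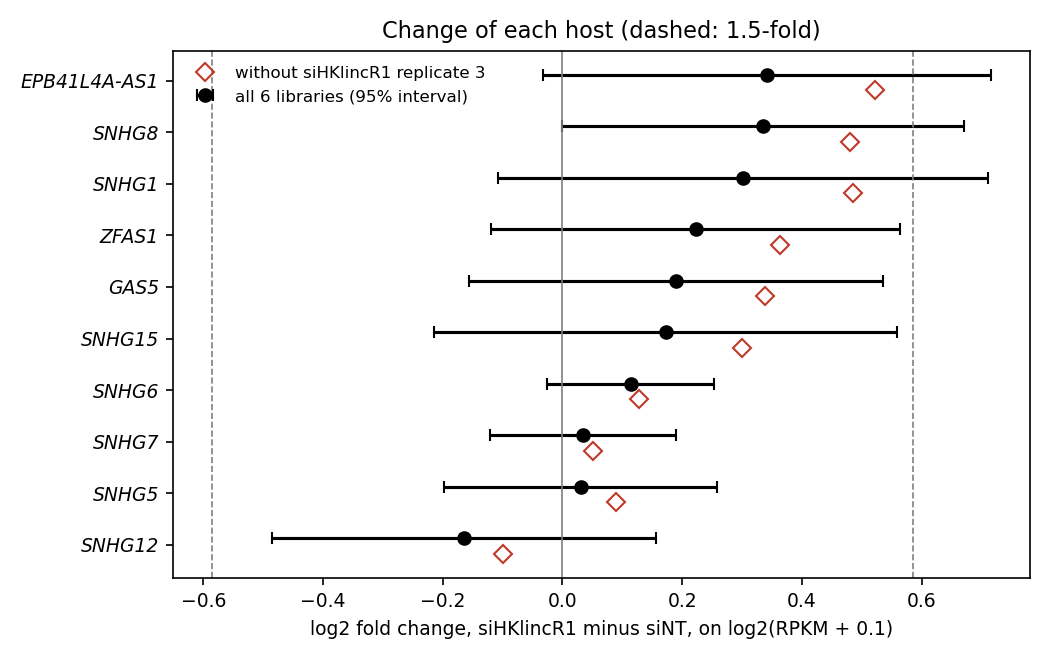
Fitted log2 fold change of each host (x axis, si*HKlincR1* minus siNT on log2(RPKM + 0.1)) with its 95% interval over 6 libraries (black) and without si*HKlincR1* replicate 3 (red diamonds), with dashed lines at 1.5-fold. All 10 of these intervals, from the fit without the replicate block, include 0, and every diamond lies to the right of its black point.

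The same-numbered ratios gave the pattern in another form. In replicate 1, 8 of 10 hosts were higher with si*HKlincR1* than in the siNT library of that number, in replicate 2 all 10 were, and in replicate 3 only *SNHG8*, *SNHG6* and *EPB41L4A-AS1* were. The median log2 ratio was 0.06, 0.55 and -0.04, against 0.0040, -0.0067 and -0.0020 over all tested genes. Within replicate 2 the ratios ran from 1.10 for *SNHG6* and *SNHG7* to 1.73 for *SNHG1*. The siNT library of that number was the lowest of the 6 libraries for 3 hosts.

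**Figure D3:**
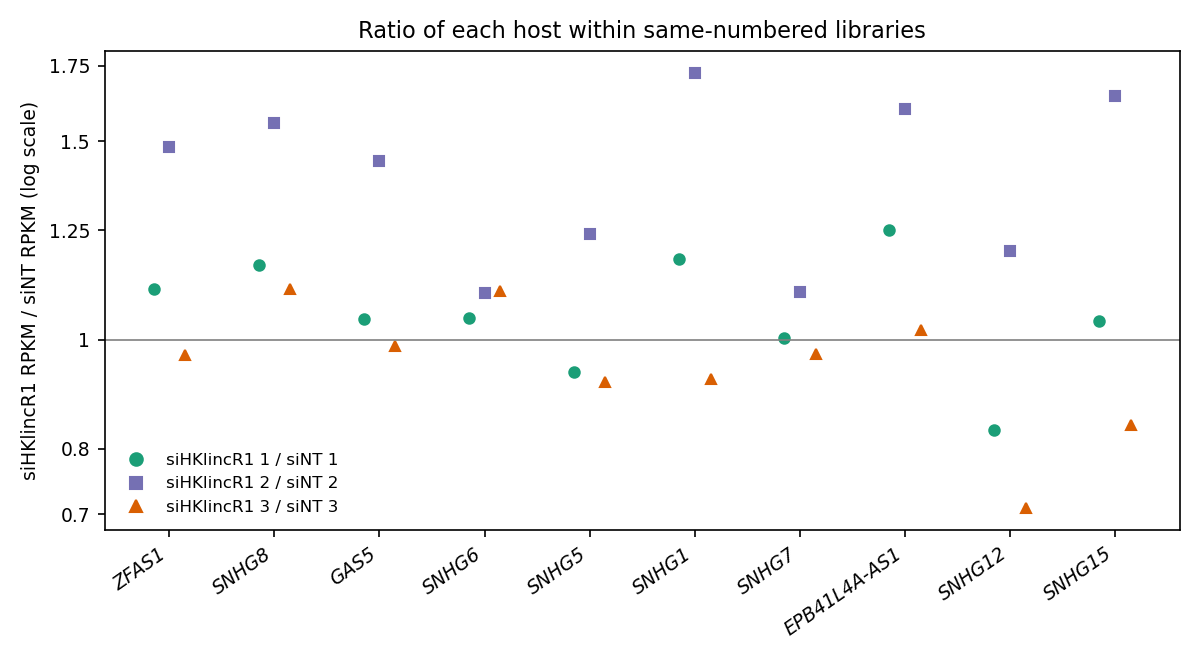
Ratio of si*HKlincR1* to siNT RPKM for each host (log axis) within replicate 1 (circles), 2 (squares) and 3 (triangles). The squares lie above 1 for all 10 hosts and reach 1.73, while the triangles run from 0.709 for *SNHG12* to 1.11.

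Without si*HKlincR1* replicate 3 the median change of the hosts was 0.32, against 0.0037 over all tested genes. *SNHG8* (log2 fold change 0.48, limma adjusted p = 0.0476) and *EPB41L4A-AS1* (0.52, limma adjusted p = 0.0339) then had an adjusted p under 0.05, as did 2.97% of all tested genes in the higher direction, but neither reached 1.5-fold. *SNHG1* stood at 0.49 (limma adjusted p = 0.0621), *ZFAS1* at 0.36, *GAS5* at 0.34 and *SNHG15* at 0.30. Leaving out si*HKlincR1* replicate 2 in its place moved the hosts the other way, to a median of 0.05. *SNHG8* then stood at 0.21, *EPB41L4A-AS1* at 0.19, *SNHG1* at 0.12, *ZFAS1* at 0.06, *GAS5* at 0.05, *SNHG15* at 0.02 and *SNHG12* at -0.28. The size of most fitted changes thus rested on which of these 2 libraries was kept. Of the pair, replicate 3 held less *HKlincR1* and had host levels closer to control, a comparison of single libraries with no test.

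The other 15 snoRNA host lncRNAs listed gave a similar picture, with 13 tested, 10 above 0, 3 below 0 and none called in either fit (median 0.09). *SNHG32* had 42.4, 42.1 and 35.6 RPKM with siNT and 54.7, 77.4 and 37.9 RPKM with si*HKlincR1*, or 0.44 on the log2 scale (limma adjusted p = 0.383). Here again replicate 2 was the high library. *SNHG20* had separated groups, 1.93 ± 0.154 and 2.71 ± 0.434 RPKM (SD, n = 3), or 0.46 on the log2 scale (limma adjusted p = 0.228), and *SNHG25* stood at 0.19. Without si*HKlincR1* replicate 3, *SNHG20* and *SNHG32* were called higher (limma adjusted p = 0.0365 and 0.0498), in a setting that called 1.32% of all tested genes higher.

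Protein-coding snoRNA hosts outside the ribosome stayed near 0, with 18 of 30 above 0, none called and a median of 0.03. *HSPA8*, a constitutive HSP70 chaperone, had 295, 306 and 546 RPKM with siNT and 226, 171 and 371 RPKM with si*HKlincR1*. It was lower within each replicate number while the groups overlapped, so the log2 fold change of -0.59 missed the threshold in the limma fit (adjusted p = 0.397) and passed it with the block (adjusted p = 0.0475). The mitochondrial chaperone gene *HSPA9* (0.29) and the translation factor gene *EIF4A1* (0.32) did not pass.

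Ribosomal protein genes, which carry the 5′TOP motif, had 66 of 79 members above 0, a median of 0.06 and none called in either fit. *RPS26* stood at -0.34 and *RPL36A* at 0.32. Of the 15 listed regulators of 5′TOP translation and *MYC*, a transcription factor of ribosome biogenesis, none was called in the limma fit (median 0.06, 11 above 0).

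Within that list *MYC* had 111, 114 and 93.5 RPKM with siNT and 185, 187 and 116 RPKM with si*HKlincR1* (log2 fold change 0.59, limma adjusted p = 0.237, or 0.0493 with the block). *EIF4EBP1*, which codes for the mTOR-controlled inhibitor of cap-dependent translation, had 59.4, 61.4 and 51.9 against 102, 111 and 69.2 RPKM (0.68, limma adjusted p = 0.178, or 0.0437 with the block). In both genes every knockdown library was above every control and replicate 3 was the lowest of the knockdown libraries. *PDCD4*, an inhibitor of the helicase EIF4A1, stood at 0.55 (limma adjusted p = 0.182, or 0.0475 with the block), below 1.5-fold. Without si*HKlincR1* replicate 3, *EIF4EBP1* (limma adjusted p = 0.0174) and *MYC* (limma adjusted p = 0.0224) were called, beside the 1.32% of all tested genes called higher in that setting.

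Factors of nonsense-mediated decay did not move as a list, with 9 of 18 tested above 0, 9 below 0 and none called (median -0.01). *MAGOH*, part of the exon junction complex, had separated groups, 21.8 ± 0.798 and 27.5 ± 0.601 RPKM (SD, n = 3), and did not pass (log2 fold change 0.33, limma adjusted p = 0.0974, or 0.0508 with the block). *SMG9* stood at 0.20 and *PNRC2* at 0.19. Of 7 transcripts known to be degraded by that pathway and also induced by stress, 6 were above 0 and none was called (median 0.52, or 0.31 without siNT replicate 3).

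*DDIT3*, a stress transcription factor gene, had 25.6, 24.5 and 11.5 RPKM with siNT and 45.1, 52.3 and 22.6 RPKM with si*HKlincR1*. *GADD45A*, a growth-arrest gene induced by DNA damage, had 20.9, 19.6 and 12.4 against 40.2, 43.0 and 21.2 RPKM. Each was higher within every replicate number, with replicate 3 low in both groups. The log2 fold changes were 0.96 and 0.95 (limma adjusted p = 0.303 and 0.237), and both were called once blocked (limma adjusted p = 0.0138 and 0.0170), while *ATF3* at 0.58 was not (adjusted p = 0.0554). Without si*HKlincR1* replicate 3, *GADD45A*, *GADD45B* and *UPP1* were called (limma adjusted p = 0.0317, 0.0211 and 0.0365), the last 2 named here after their values were seen. All tested genes called higher rose to 204 (1.32%) in that setting.

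The medians of this list against the siNT mean were 0.64, 0.83 and 0.20 in the si*HKlincR1* libraries, where those of the 10 hosts were 0.14, 0.48 and -0.06. In these libraries both were highest in replicate 2 and lowest in replicate 3. In the siNT libraries the medians were 0.15, 0.11 and -0.20 for the list and 0.05, -0.07 and 0.01 for the hosts. Those did not run in the same order. The part of one set of genes in the other was not tested. Summed fibroblast markers (*COL1A1*, *COL3A1* and *PDGFRB*) were 14.8 to 17.4 RPKM with siNT and 18.7 to 22.6 RPKM with si*HKlincR1*, mostly *COL3A1*, with none called, while *COL1A1* was lower with si*HKlincR1* (1.10 and 0.580 RPKM). Leukocyte markers summed to at most 0.228 RPKM and endothelial markers to at most 0.0212 RPKM. In the si*HKlincR1* libraries the fibroblast sum was highest in replicate 1, and its part in the host levels was not tested.

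**Figure D4:**
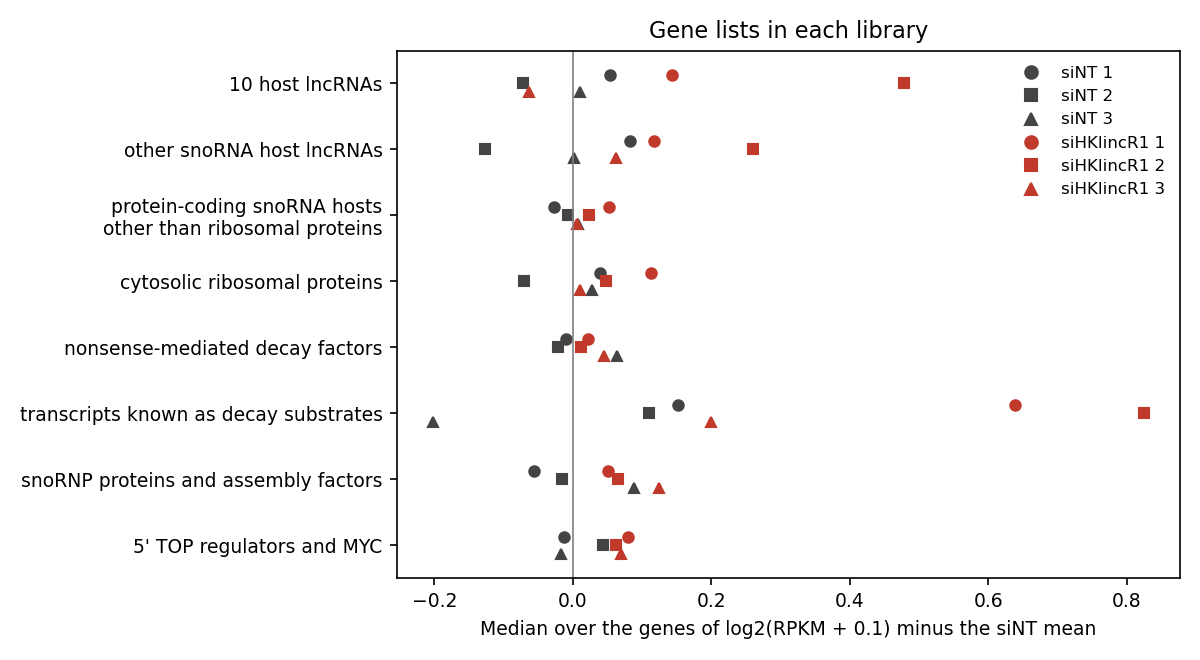
Median over the tested genes of each list of log2(RPKM + 0.1) minus the siNT mean (x axis), 1 point per library, with grey for siNT, red for si*HKlincR1* and marker shape for the replicate. The 10 hosts reach 0.48 in si*HKlincR1* replicate 2 and -0.06 in replicate 3, while the ribosomal proteins stay between -0.07 and 0.11 in every library.

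Of the proteins that build snoRNPs, 13 of 15 tested were above 0 and 1 was called, *SHQ1*, a chaperone for the pseudouridine synthase dyskerin in assembly of box H/ACA snoRNPs. It had 2.85, 3.25 and 3.84 RPKM with siNT and 1.67, 1.49 and 1.61 RPKM with si*HKlincR1*. It fell in every knockdown library, by 1.0 on the log2 scale (SE 0.129, limma adjusted p = 0.0339, or 0.0340 with the block). The assembly factor genes *ZNHIT6* (0.35) and *NUFIP1* (0.24) had separated groups and did not pass. The call on *SHQ1* remained without si*HKlincR1* replicate 3 (limma adjusted p = 0.0284, where 2.03% of all tested genes were called lower), and 0 genes of the list were called when siNT replicate 1, 2 or 3 or si*HKlincR1* replicate 1 or 2 was left out. Its canonical transcript holds 1 match to the seed of the siRNA described next, as does that of *HSPA8*. The canonical transcripts of *MYC*, *EIF4EBP1*, *DDIT3*, *GADD45A*, *SNHG20* and *SNHG32* hold none. The other genes named here outside the hosts were not looked up singly, and 19.4% of all tested genes with a canonical transcript hold a match. A part of the seed in the values of these genes was not tested.

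The siRNA was searched for seed matches because short pairing of the guide strand can lower transcripts other than the target. The printed strand is the one given for the reagent, and the guide is its complement with bases 2 to 8 in capitals.
si*HKlincR1*_2: GAAGUAUACUCGUGUGCUU
guide: aAGCACACgaguauacuuc
The matching site GTGTGCT, searched on the transcript strand only, was present in the canonical transcripts of 4 of the 10 hosts and of 2853 of 14716 tested genes (19.4%). The hosts are shown with flanking bases and the site in capitals.
*ZFAS1*: gaggctgagatGTGTGCTcccctaaggcac
*EPB41L4A-AS1*: tctagtgacagGTGTGCTttactgcactca
*SNHG12*: aaaattatgcaGTGTGCTactgaacttcag
*SNHG15*: gtgaggtcaatGTGTGCTcatcttaaagga
It was held by 2 of 14 annotated isoforms of *ZFAS1*, 2 of 9 of *EPB41L4A-AS1*, 15 of 19 of *SNHG12* and 4 of 14 of *SNHG15*, and by 16 of 80 of *SNHG1* and 4 of 89 of *SNHG5*. No annotated isoform of *SNHG8*, *GAS5*, *SNHG6* or *SNHG7* held it. Of the hosts with the site in the canonical transcript, *SNHG12* had a fitted log2 fold change of -0.17, with an interval that included 0. *ZFAS1* stood at 0.22, *EPB41L4A-AS1* at 0.34 and *SNHG15* at 0.17, and none of these hosts was called. A part of the site in these values was not tested. A match of letters does not show that the siRNA acts there.

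The starts of 3 hosts face a protein-coding gene on the opposite strand, and none of these neighbours was called. *ZNFX1*, whose start lies 216 bases from that of *ZFAS1*, had 3.88, 4.15 and 4.12 RPKM with siNT and 4.93, 5.17 and 4.56 RPKM with si*HKlincR1*. All knockdown libraries were above the controls, with a log2 difference of 0.26 (limma adjusted p = 0.230, or 0.116 with the block). *ZBTB37*, 93 bases from *GAS5*, went from 0.966 to 1.27 RPKM (0.37, limma adjusted p = 0.360). *SLC3A2*, 82 bases from *SNHG1*, stood at 48.6 and 50.4 RPKM (0.05, limma adjusted p = 0.875).

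Some host values carry a limit from the annotation. Genes on the opposite strand overlap *GAS5*, *SNHG6*, *SNHG7*, *SNHG8*, *SNHG12*, *ZFAS1* and *EPB41L4A-AS1*. The library kit keeps strand, but the strand setting of the counting is not given in the sources used here, so reads of such partners may be included. *SNHG1*, *SNHG5* and *SNHG15* have no annotated gene on the other strand within their span.

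The 5 tested genes nearest to their mean profile over the 6 libraries, by root-mean-square distance of centred log2(RPKM + 0.1), were *AP000525.9* (0.0237), *ASB1* (0.0283), a processed pseudogene (ENSG00000257307, 0.0284), *GAREM2* (0.0351) and *LTO1* (0.0354). The hosts themselves lay at 0.0703 for *GAS5* to 0.191 for *SNHG12*. Of 15441 tested genes outside the 10, 70 lay closer to the mean profile than *GAS5* did.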

How the data were processed

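Expression was measured by polyA RNA-seq in H460 cells, with 3 siNT and 3 si*HKlincR1* libraries grouped by their labels. Libraries were strand-specific and sequenced as paired 75 base reads. Per the submitters' processing notes and the paper's methods, the authors used CASAVA 1.8.2 and featureCounts with Ensembl release 74 gene models on GRCh37. The aligner is not given in the sources used here. The authors deposited RPKM values, that is, read counts divided by gene model length and sequencing depth, for 57773 genes, and these were used as they are. All 6 value columns were used. Because the values were not rounded, library totals and reads could be worked back: all 31287 genes above 0 came out as whole reads (tolerance 0.001 reads). A floor of 3 reads was used for single rows.

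Tests used limma 3.58.1 in R 4.3.3 (lmFit, eBayes with a mean-variance trend) on log2(RPKM + 0.1) for 15451 genes whose mean reached 0.5 RPKM, with Benjamini-Hochberg adjustment over all of them. Calls needed an adjusted p below 0.05 together with more than 1.5-fold. The authors' own count test was not repeated, since the unit is RPKM. Single values were compared with exact permutation tests in scipy 1.17.1. The fit was tested on simulated reads in which 200 of 15451 genes were changed by 1 on the log2 scale. Of these, 171 were called (85.5%), and 6 unchanged genes were called as well. The simulation used the same relative spread for every gene and no replicate effect. It therefore does not show how well smaller changes would be found in these libraries.

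Replicate numbers come from the labels. Deviations from the group means correlated at 0.142, 0.137 and 0.266 between same-numbered libraries and at -0.209 to 0.113 between others (across genes). Such deviations cancel out within a group for each gene, so these correlations depend on each other. Shared preparation is not stated. The main fit leaves the numbers out, and a fit with them as a block is given beside it. Median log2 levels differed little between libraries (2.34 to 2.37).

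The hosts and the 7 gene lists were chosen with earlier results of these data known. Named genes are the hosts, *HKlincR1*, at most 3 genes with the largest change per list, opposite-strand genes that start beside a host, snoRNA rows inside hosts and the 5 nearest profiles. One gene that meets this rule is not reported here. Of the listed genes, *SNHG4*, *RBM8A*, *ZNHIT3* and *PECAM1* had no matched row. Symbols, spans and sequences came from GENCODE v44 on GRCh37, in which 55538 identifiers matched. P-values measure the spread between cultures of 1 cell line. The 95% intervals are limma's, from the fit without the replicate block unless stated, and cover the spread between libraries. The floor of 3 reads covers counting error only.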

Additional observations from a re-analysis of the deposited data

How the results depend on the processing

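Over 16 alternatives to the limma fit, and by adjusted p alone in that fit, no host was called higher or lower. Across these 17 settings 556 of 594 comparisons of a result with an alternative kept direction and call, counts within 1.5 times included. These comparisons include counts that were 0 in both, which could move little. The median change of the hosts ran from 0.05 to 0.32 when each library was left out in turn. The change of *SNHG5* then ran from -0.068 without si*HKlincR1* replicate 2 to 0.090, with -0.010 without siNT replicate 2. That of *SNHG7* ran from -0.0067 without siNT replicate 2 to 0.054. Ranges were 0.05 to 0.34 for *GAS5*, 0.06 to 0.36 for *ZFAS1*, 0.02 to 0.30 for *SNHG15*, 0.12 to 0.49 for *SNHG1*, 0.21 to 0.48 for *SNHG8*, 0.19 to 0.52 for *EPB41L4A-AS1*, -0.28 to -0.07 for *SNHG12* and 0.09 to 0.14 for *SNHG6*. The median of the decay substrates ran from 0.31 to 0.67.

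Counts over all tested genes moved more. From 55 lower and 1 higher they went to 125 and 79 with the replicate block, where 1 protein-coding host was called lower and 2 decay substrates and 2 genes of the list of 5′TOP regulators and *MYC* were called higher. The block changed no other call of a host or list. A voom fit on reads gave 87 lower and 2 higher. Without the filter on low values 34 were lower and 12 higher, and without the variance trend 16 were lower, and *SHQ1* was lost in both, which left 0 snoRNP genes called. The higher count was 0 with a pseudocount of 0.01, 2 with median centring and 2 by adjusted p alone. Leaving out 1 library gave 7 to 314 lower and 0 to 204 higher genes, 0 to 1 snoRNP genes lower, 0 to 2 other snoRNA host lncRNAs, 0 to 3 decay substrates and 0 to 2 genes of the 5′TOP and *MYC* list higher. The highest of these counts came without si*HKlincR1* replicate 3. Some settings also change the number of libraries or genes, and the cause of these shifts was not tested.

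With 3 libraries a group and no block, 7 of the 10 hosts had 95% intervals that kept within 1.5-fold on both sides. Those of *SNHG1*, *SNHG8* and *EPB41L4A-AS1* reached beyond it. With the replicate block the interval of *SNHG15* (-0.30 to 0.64) reached beyond it as well. In that fit the intervals of *SNHG8* (0.07 to 0.60) and *EPB41L4A-AS1* (0.02 to 0.66) left out 0. Their limma adjusted p with the block was 0.131 and 0.173. Reads per host were 552 to 6569 in a library. The snoRNA rows were too shallow for a comparison.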
